A study of Mus musculus with 6 samples.

Results

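The BCL2 family genes Bcl2, Bcl2l1, Mcl1, Bax, Bak1, Bcl2l11, Bid, Bbc3, Pmaip1 and Bmf were examined in mouse hematopoietic stem cells (HSCs) that lack or retain Emp1. The members were chosen by symbol, through the Ensembl identifiers of the mouse annotation, and all 10 were found among 55401 gene identifiers. HSCs were sorted from bone marrow as CD48-CD150+LSK cells, where LSK denotes lineage-negative, Sca-1-positive and c-Kit-positive cells. The 3 Emp1-deficient libraries came from Emp1fl/fl,Tie2-Cre mice and the 3 control libraries from Emp1fl/fl mice, so both genotypes carried the floxed Emp1 alleles. The Tie2 promoter drives Cre in endothelial and blood-forming cells, so Cre activity is not limited to HSCs. Age, sex and any pooling of animals are not given in the labels, and nothing says that replicates came from separate mice. The p-values therefore measure the spread between these libraries, which may be technical.

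The BCL2 family sets whether the outer mitochondrial membrane of a cell stays closed. Pro-survival proteins such as BCL2, BCL-XL (from Bcl2l1) and MCL1 hold the effectors BAX and BAK in check, and BH3-only proteins such as BIM (from Bcl2l11), BID, PUMA (from Bbc3), NOXA (from Pmaip1) and BMF block the pro-survival proteins or activate the effectors. Once BAX or BAK opens the membrane, cytochrome c leaves the mitochondrion and caspases are activated. In mice, HSCs depend on MCL1 for survival, and PUMA and NOXA are products of p53 target genes. The series title names endoplasmic reticulum stress and radiation injury, and BH3-only genes are known to respond to both kinds of insult.

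Expression was given as FPKM, in which fragment numbers are divided by transcript length and library size, so that genes of different length share a unit. Levels compared between genes are approximate, since the RNA was amplified and gene-level values do not separate transcript forms. A gene entered the test when 3 or more of the 6 libraries reached 1 FPKM, which kept 15723 genes and all 10 members. Between 14334 and 18048 genes per library reached 1 FPKM. The value of a single fragment on a 1 kb transcript, read from the lowest values of single-exon genes, ran from 0.06 FPKM in Emp1-deficient replicate 3, the deepest library, to 0.145 FPKM in Emp1-deficient replicate 1 and control replicate 2. Emp1 itself had 0.58, 0.70 and 0.27 FPKM in libraries of Emp1fl/fl,Tie2-Cre mice, against 3.25, 2.64 and 4.32 FPKM in controls, in the direction of the labels (limma adjusted p = 0.0577). Its floxed exons are not named in the labels, so the value may include undeleted exons. The genes of the sort were detected in all libraries. Kit ran from 217 to 337 FPKM in Emp1-deficient libraries, against 267 to 315 FPKM in controls, Ly6a (Sca-1) from 62.6 to 81.2 FPKM, against 89.2 to 97.2 FPKM, and Slamf1 (CD150) from 20.1 to 27.6 FPKM, against 15.1 to 20.8 FPKM. Transcripts of Cd48, whose protein the gate excludes, were at 22.9 to 47.3 FPKM, against 26.1 to 49.6 FPKM in controls. Of the B and T cell genes, Pax5 did not exceed 0.58 FPKM and Cd3d 0.19 FPKM, and Cd3d was listed at 0 in 3 libraries. Others, named after their values were seen, were not low. Cd79b ran from 31.2 to 36.5 FPKM in Emp1-deficient libraries, against 28.5 to 40.0 FPKM in controls. Lck ran from 15.4 to 19.4 FPKM, against 13.4 to 22.1 FPKM in controls. Igkc and Ighm are given below with the other markers. In bulk RNA, fewer cells of a type and less RNA per cell cannot be told apart.

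None of the 10 members passed the test between genotypes (limma on log2(FPKM + 1), Benjamini-Hochberg adjusted p under 0.05 over all genes, which called 0.267% of the 15723 genes, 0.159% as higher and 0.108% as lower). Member adjusted p-values ran from 0.268 to 0.82. With an unadjusted p under 0.05 there was 1 member, Mcl1, which was higher. That is 10% of the members, against 16.2% of all tested genes (6.5% higher and 9.72% lower). In FPKM, the genotypes did not overlap in 2 members, Mcl1 (higher in Emp1-deficient HSCs) and Bmf (lower), or 20% of the members against 22.1% of all tested genes (8.91% higher and 13.2% lower). Neither share stands above that of genes at large, and Bmf entered the test only through the controls, in which it is high. The members' log2 fold changes ran from -0.50 to 0.30 with a median of 0.21, against a median of -0.046 over all tested genes. Of the members 6 were above 0, while 56.9% of all tested genes were lower in Emp1-deficient libraries.

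**Figure D1:**
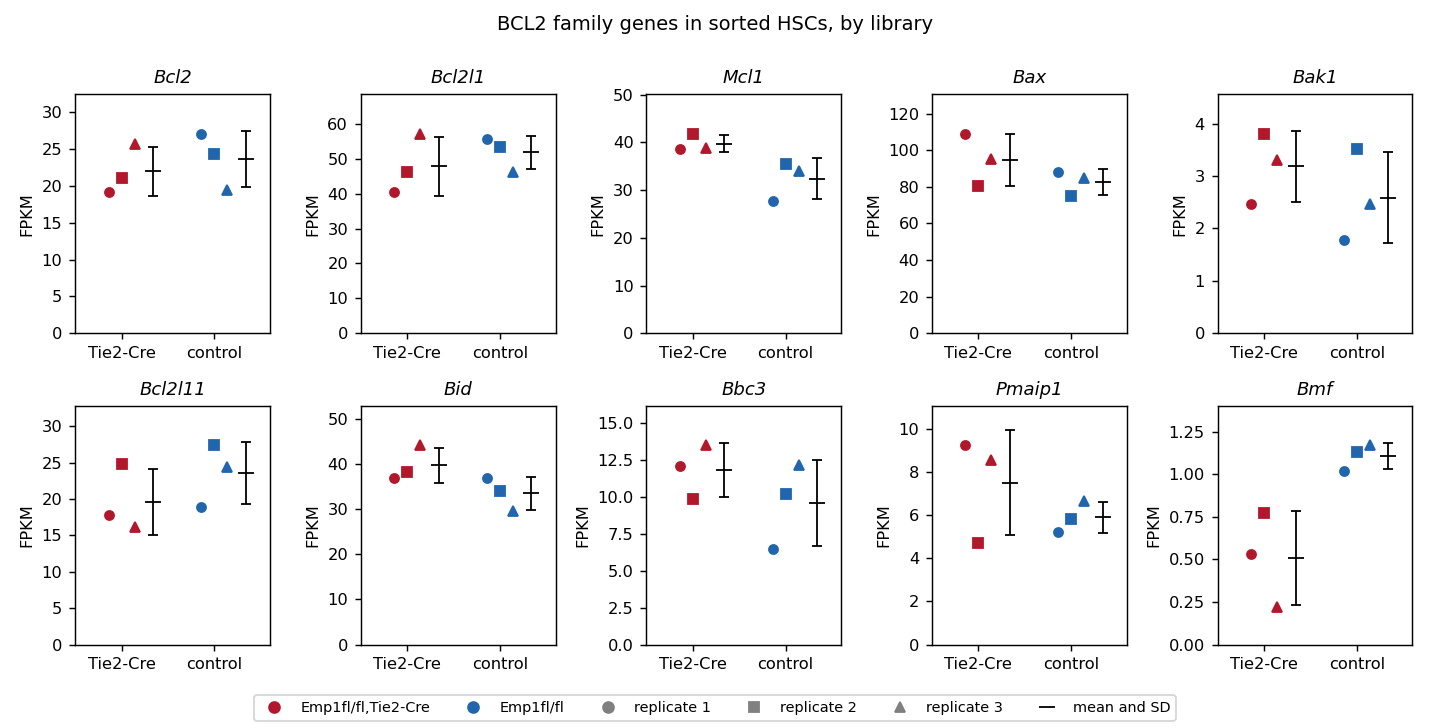
FPKM of the 10 members in each library, with Emp1fl/fl,Tie2-Cre (red) left of Emp1fl/fl controls (blue), replicates by marker shape, and the mean with SD in black. Mcl1 and Bmf are the members whose FPKM do not overlap between the genotypes. Mcl1 is at 38.6 to 41.8 FPKM against 27.6 to 35.6 FPKM and Bmf at 0.22 to 0.77 FPKM against 1.02 to 1.17 FPKM. The genotypes overlap for Mcl1 after rescaling to a common library sum. Bmf entered the test only through the controls.

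The order of transcript levels within the family was nearly the same in every library. Bax was the highest member in 6 of 6 libraries, followed by Bcl2l1 in 6 of 6. Bid and Mcl1 changed places with each other (Bid above Mcl1 in 2 of 6 libraries), as did Bcl2 and Bcl2l11 (Bcl2 higher in 3 of 6), and neither pair differed beyond the spread of the libraries. Bbc3, Pmaip1, Bak1 and Bmf took the lowest places in that order in all 6. Averaged over the 6 libraries, Bax at 88.7 FPKM was higher than 91.0% of the tested genes, whereas Bak1 at 2.89 FPKM exceeded 25.7% of them and Bmf at 0.807 FPKM 0.668%. HSCs of both genotypes thus carried transcripts of BAX well above those of BAK: the ratio of Bax to Bak1 averaged 31.4 ± 11.8 in Emp1-deficient and 35.1 ± 14.1 in control libraries (SD, n = 3 each).

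Among the pro-survival genes, Mcl1 (mm10 chr3:95658788-95663176) had the smallest p of the 10 members. MCL1 is a short-lived protein, so its amount depends closely on new synthesis. The gene had 38.6, 41.8 and 38.9 FPKM in Emp1-deficient libraries, against 27.6, 35.6 and 34.1 FPKM in controls. In FPKM, each Emp1-deficient library lay above each control, and the lowest control was replicate 1. The separation depends on the scale, since all FPKM sum to 784100 in Emp1-deficient replicate 1 and to 720100 in control replicate 2. After rescaling to a common library sum, Mcl1 in the former fell just below the latter. Mean levels were 39.7 ± 1.74 and 32.4 ± 4.21 FPKM (SD, n = 3 each). The log2 fold change was 0.29 (SE 0.12, 95% confidence interval 0.025 to 0.56), with an unadjusted limma p of 0.0356 that did not hold after adjustment (adjusted p = 0.268). The size of the difference rested partly on control replicate 1, without which the log2 fold change was 0.19 (unadjusted p = 0.139). The unadjusted p was also above 0.05 without Emp1-deficient replicate 2 (0.0998) or 3 (0.063), after rescaling to a common library sum (0.0918) and with the plain form of the limma test (0.0657).

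Bcl2l1 (chr2:152780668-152831728) encodes BCL-XL, and by alternative splicing also a short pro-death form that gene-level values do not separate. It stood at 40.4, 46.2 and 57.1 FPKM in Emp1-deficient libraries, against 55.6, 53.4 and 46.3 FPKM in controls. The Emp1-deficient libraries lay on both sides of the controls and none inside their range: replicates 1 and 2 lay below it and replicate 3 above it. The log2 fold change was -0.12 (95% confidence interval -0.43 to 0.19, adjusted p = 0.732 by limma), from -0.25 without Emp1-deficient replicate 3 to -0.0075 without Emp1-deficient replicate 1.

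Bcl2 (chr1:106538178-106714274), the founding member of the family, had 19.2, 21.1 and 25.7 FPKM in Emp1-deficient libraries, against 27.0, 24.3 and 19.5 FPKM in controls. The ranges were nearly the same, and the limma interval of the log2 fold change ran from -0.45 to 0.25 (adjusted p = 0.82). Bcl2 and Bcl2l1 kept a steady proportion within each library, with a ratio of Bcl2 to Bcl2l1 of 0.45 to 0.475 in Emp1-deficient libraries and 0.421 to 0.486 in controls. Of the summed FPKM of the 3 pro-survival genes, Mcl1 made up 39.3%, 38.3% and 32.0% in Emp1-deficient libraries, against 25.1%, 31.4% and 34.1% in controls, with overlap between the genotypes.

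Both effectors averaged slightly higher in Emp1-deficient HSCs without passing the test. Bax (chr7:45461697-45466898), which moves from the cytosol to mitochondria when a cell commits to death, had 109, 80.2 and 95.4 FPKM in Emp1-deficient libraries, against 88.3, 75.0 and 84.7 FPKM in controls. Emp1-deficient replicates 1 and 3 lay above every control, and replicate 2 lay inside the control range. The log2 fold change of Bax was 0.19 (SE 0.13, adjusted p = 0.526 by limma). Leaving out 1 library moved it to 0.084 (Emp1-deficient replicate 1), 0.12 (control replicate 2) or 0.30 (Emp1-deficient replicate 2, unadjusted p = 0.0372, adjusted p = 0.265). Bak1 (chr17:27019810-27029009), whose product sits in the outer mitochondrial membrane, was low, at 2.46, 3.80 and 3.31 FPKM, against 1.78, 3.51 and 2.47 FPKM in controls. Its 95% interval of -0.30 to 0.78 on the log2 scale is wide, so at this level differences in either direction remain possible (adjusted p = 0.683), and with 1 library left out the value ran from 0.070 to 0.42.

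The BH3-only genes did not move together. Bid, Bbc3 and Pmaip1 averaged higher in Emp1-deficient HSCs, Bcl2l11 and Bmf lower, and none of the 5 passed the test (adjusted p from 0.372 to 0.644 by limma, with 0 at an unadjusted p under 0.05).

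Bid (chr6:120891930-120916853) encodes the BH3-only protein that caspase-8 cleaves, which links death receptors to mitochondria. Its level was 36.8, 38.1 and 44.1 FPKM in Emp1-deficient libraries, against 36.9, 33.9 and 29.6 FPKM in controls. A single pair broke the separation: Emp1-deficient replicate 1 (36.80 FPKM) lay just under control replicate 1 (36.90 FPKM). The log2 fold change was 0.24 (SE 0.12, 95% confidence interval -0.033 to 0.51, adjusted p = 0.372), and 0.16 without control replicate 3.

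Bbc3 (chr7:16308393-16318205) and Pmaip1 (chr18:66458533-66465565) encode PUMA and NOXA, of which NOXA binds mainly MCL1 and A1. Bbc3 had 12.1, 9.86 and 13.5 FPKM in Emp1-deficient libraries, against 6.46, 10.2 and 12.2 FPKM in controls. The mean difference of 0.30 on the log2 scale came in large part from the low control replicate 1, since without that library it was 0.07. Pmaip1 stood at 9.26, 4.72 and 8.56 FPKM, against 5.23, 5.82 and 6.69 FPKM in controls. Here Emp1-deficient replicates 1 and 3 exceeded all controls while replicate 2 lay below all of them, and without that replicate the log2 fold change was 0.52 in place of 0.26. Among the members, Bax showed the same grouping of replicates 1 and 3 above the controls.

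Bcl2l11 (chr2:128126038-128162547) encodes BIM, a main trigger of death in blood cells deprived of cytokines. It had 17.9, 24.8 and 16.1 FPKM in Emp1-deficient libraries, against 18.9, 27.4 and 24.5 FPKM in controls. Emp1-deficient replicates 1 and 3 lay below all controls and replicate 2 inside their range, so that Bcl2l11 ran opposite to Bax and Pmaip1 in these libraries. The log2 fold change was -0.26 (SE 0.19, adjusted p = 0.545), and -0.44 without Emp1-deficient replicate 2 (adjusted p = 0.264, against up to 0.859 in other settings).

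Bmf (chr2:118528757-118549687), whose product is kept on the actin-myosin skeleton until cells detach or are stressed, was the lowest member. It was listed at 0.53, 0.77 and 0.22 FPKM in Emp1-deficient libraries, against 1.02, 1.13 and 1.17 FPKM in controls. The lowest value fell in the deepest library, and every Emp1-deficient value lay under every control. Mean levels were 0.507 ± 0.276 and 1.11 ± 0.0777 FPKM (SD, n = 3 each), and the log2 fold change was -0.50 (SE 0.28, 95% confidence interval -1.14 to 0.14, adjusted p = 0.434). Bmf reached 1 FPKM in 3 of 3 controls and in 0 Emp1-deficient libraries, so it entered the test only through the genotype in which it is high, and its separation carries no weight of its own. With a pseudocount of 0.1 in place of 1, its log2 fold change was -1.11 (adjusted p = 0.491), and with one of 5 it was -0.15 (adjusted p = 0.424). Its adjusted p ran from 0.258 to 0.768 over all settings tried.

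**Figure D2:**
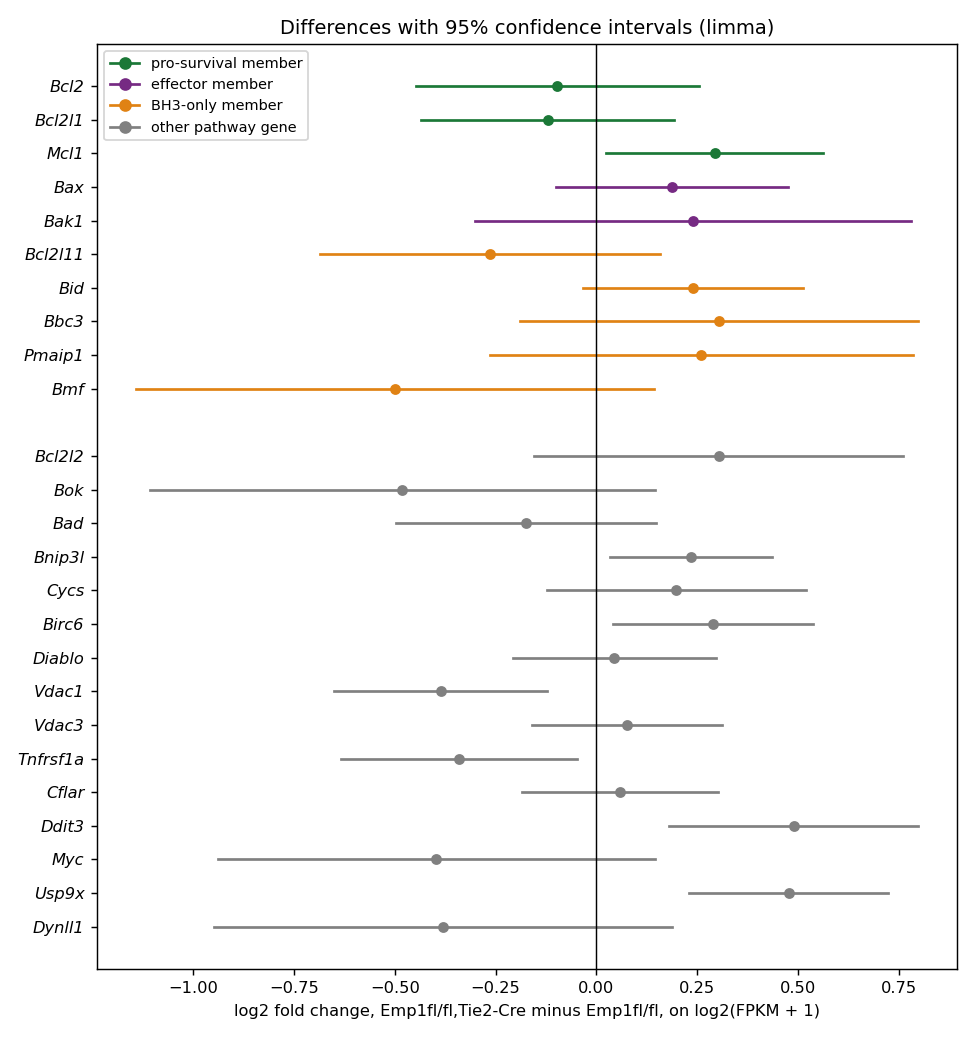
Log2 fold change (Emp1fl/fl,Tie2-Cre minus Emp1fl/fl, on log2(FPKM + 1)) with the 95% limma interval for the 10 members, coloured by role, and for the named pathway genes in grey. Among members the interval leaves out 0 for Mcl1 only (0.025 to 0.56), and no gene shown passes after adjustment.

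Some member loci share exons with neighbours, and the labels do not say whether fragments were counted by strand. Bid shared 17.7% of its exonic bases with Bcl2l13 on the other strand. Bak1 shared 18.2% with one annotated copy of Ggnbp1 and 7.35% with another, both on the other strand, Bax 12.2% with Gm45808 on its own strand, and Bcl2 6.09% with an antisense transcript. Fragments in those stretches may have been assigned to either gene. Mcl1, Bcl2l1, Bcl2l11, Bbc3, Pmaip1 and Bmf shared no exonic base with an annotated gene.

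The 10 members together summed to 286, 271 and 303 FPKM in Emp1-deficient libraries, against 269, 270 and 261 FPKM in controls, which was higher with no overlap. After rescaling to a common library sum (TPM) the genotypes overlapped, at 365, 368 and 410 TPM, against 363, 375 and 362 TPM in controls. The 3 pro-survival genes together held 98.1, 109 and 122 FPKM in Emp1-deficient libraries, against 110, 113 and 99.9 FPKM in controls. The effectors held 111, 84.0 and 98.7 FPKM, against 90.1, 78.5 and 87.1 FPKM in controls. For the 5 BH3-only genes the sums were 76.6, 78.2 and 82.5 FPKM, against 68.5, 78.5 and 74.0 FPKM in controls. Ranges overlapped in each of the 3 roles. Of the members' shares in the family sum, that of Bmf alone did not overlap, at 0.185%, 0.284% and 0.0726%, against 0.379%, 0.418% and 0.448% in controls. Bmf entered the test only through the controls, so this separation carries no weight of its own. BH3-only transcripts made up 27.6% ± 1.07 of the family in Emp1-deficient libraries and 27.6% ± 1.88 in controls (SD, n = 3 each). Effector and BH3-only transcripts together exceeded pro-survival ones by a ratio of 1.91, 1.49 and 1.49 in Emp1-deficient libraries, against 1.44, 1.38 and 1.61 in controls. Emp1-deficient replicate 1 had the highest ratio, through its high Bax and low Bcl2l1. These sums weigh transcripts, not proteins, and were not tested.

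**Figure D3:**
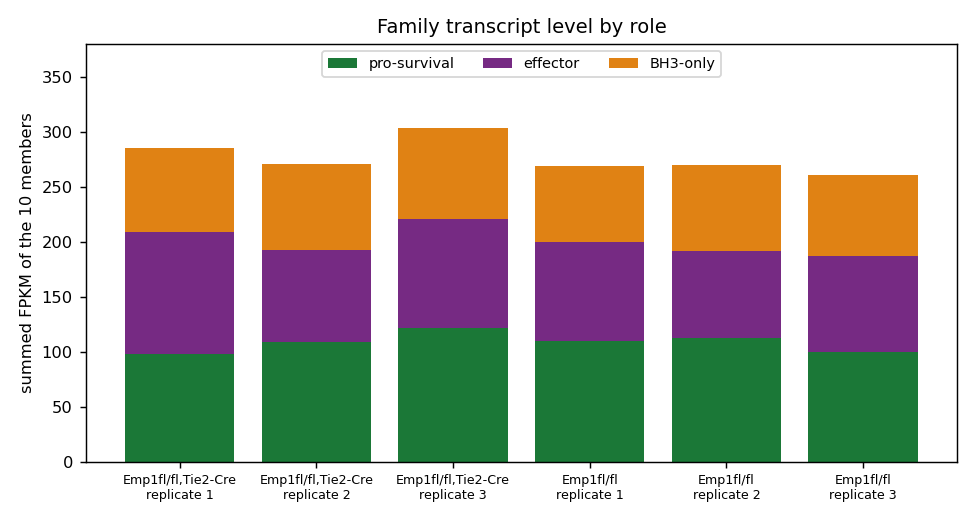
Summed FPKM of the pro-survival (green), effector (purple) and BH3-only (orange) members in each library, Emp1fl/fl,Tie2-Cre on the left and Emp1fl/fl on the right. The totals run from 271 to 303 FPKM in Emp1fl/fl,Tie2-Cre libraries and from 261 to 270 FPKM in controls, without overlap. After rescaling to a common library sum the totals overlap, and the sums of the 3 roles each overlap in FPKM.

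Of 9 ratios between members or roles that were formed, 1 did not overlap between the genotypes. Mcl1 over Bcl2l11, which pairs the pro-survival gene with a BH3-only partner that MCL1 binds, was 2.16, 1.69 and 2.41 in Emp1-deficient libraries, against 1.46, 1.30 and 1.39 in controls. The ratio is free of any library-wide scaling, but it was picked for its separation after the values were seen and is given with no test. Mcl1 over Bcl2l1 was 0.956, 0.903 and 0.682, against 0.497, 0.665 and 0.736 in controls, and overlapped.

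Promoter windows of the members were searched for short words bound by regulators of the family, and 1 window each is shown for the genes whose libraries did not overlap (Mcl1 and Bmf) and for those with a FOXO core (Bcl2l11 and Bbc3). Each window runs from 250 bases before to 50 bases after a RefSeq start site (GRCm38.p6). RefSeq gave 16 windows for 9 members and none for Pmaip1. The 4 genes shown have 9 windows: Mcl1 has 1, of the 3 of Bmf the one that held a searched word is shown (the other two held none), and of the 2 of Bcl2l11 and the 3 of Bbc3 the one with the FOXO core. Each is written 5′ to 3′ on the strand of the gene, with the words found in capitals.
Mcl1, chr3:95658471-95658770, plus strand: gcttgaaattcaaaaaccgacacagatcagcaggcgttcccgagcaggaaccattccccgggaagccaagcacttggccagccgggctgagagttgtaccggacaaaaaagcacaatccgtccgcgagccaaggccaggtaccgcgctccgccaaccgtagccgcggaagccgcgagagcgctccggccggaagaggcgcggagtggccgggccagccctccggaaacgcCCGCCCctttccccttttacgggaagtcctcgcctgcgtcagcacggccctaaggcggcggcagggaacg
Bmf, chr2:118549637-118549936, minus strand: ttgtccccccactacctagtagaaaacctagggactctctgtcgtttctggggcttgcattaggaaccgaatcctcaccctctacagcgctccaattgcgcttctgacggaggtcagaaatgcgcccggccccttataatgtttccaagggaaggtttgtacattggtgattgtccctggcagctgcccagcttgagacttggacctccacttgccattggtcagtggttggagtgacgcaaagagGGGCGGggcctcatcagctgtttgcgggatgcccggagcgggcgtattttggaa
Bcl2l11, chr2:128125788-128126087, plus strand: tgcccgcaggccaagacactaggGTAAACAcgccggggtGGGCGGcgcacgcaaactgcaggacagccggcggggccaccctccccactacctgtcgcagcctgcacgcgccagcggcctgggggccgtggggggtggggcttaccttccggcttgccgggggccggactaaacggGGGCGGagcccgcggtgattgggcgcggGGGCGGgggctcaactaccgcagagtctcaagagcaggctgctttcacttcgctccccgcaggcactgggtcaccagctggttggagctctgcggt
Bbc3, chr7:16310011-16310310, plus strand: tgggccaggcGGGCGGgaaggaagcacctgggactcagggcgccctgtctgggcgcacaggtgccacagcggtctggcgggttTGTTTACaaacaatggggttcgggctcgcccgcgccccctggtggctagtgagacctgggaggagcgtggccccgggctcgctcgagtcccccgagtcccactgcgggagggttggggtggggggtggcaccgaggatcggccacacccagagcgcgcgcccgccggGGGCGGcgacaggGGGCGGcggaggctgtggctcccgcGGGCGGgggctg

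The words searched on both strands were GTAAACA (the FOXO core), TTCNNNGAA (a STAT site), TGATGNAA (a composite site of C/EBP and ATF factors such as CHOP and ATF4), TGACGTCA (the cyclic AMP element), CACGTG (the E-box of MYC and its partners) and GGGCGG (the GC box of SP factors); none of them contains another. The FOXO core was in 2 of the 16 member windows, 1 of Bcl2l11 and 1 of the 3 of Bbc3, against 3.65% of 32851 windows of all genes. The GC box was in 10 of 16, against 35.7% of all windows, and is the only word found in the Mcl1 and Bmf windows shown. Member windows held 49.3% to 78.0% G and C, against a median of 52.7% over all windows, and this was not matched. The Bbc3 windows chr7:16310011-16310310 and chr7:16310181-16310480 overlap and share GC boxes, so the windows are not independent. The E-box was in 2 of 16 (Bax and another Bbc3 window), against 7.15%, and the 3 other words were in none. A match is a description of letters in the window and no evidence of binding, and its absence says nothing of the factor.

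Around the members, 63 further genes of the pathway were listed and 56 of them tested. None passed by limma. In direction, 24 were higher and 32 lower, beside 56.9% lower among all tested genes, and the counts per list below have the same background. With an unadjusted p under 0.05, 4 were higher and 7 were lower, or 19.6% against 16.2% of all tested genes. The median log2 fold change was -0.030, close to the -0.046 of all tested genes, and the genotypes did not overlap in 23.2% of them, against 22.1%. The 7 genes left untested were low throughout: Bcl2l10, Bcl2a1a, Bcl2a1d, Bik, Hrk, Bcl2l15 and Trp73, of which Bcl2l15 reached the highest value, 1.28 FPKM in Emp1-deficient replicate 1.

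Other BCL2 relatives added little to the pro-survival level. Bcl2l2, which encodes BCL-W, was the highest of its group at 2.61 to 3.70 FPKM in Emp1-deficient libraries, against 1.98 to 2.70 FPKM in controls (adjusted p = 0.516). The Bcl2a1 genes, which encode A1, are near-identical copies, so how their fragments were divided is uncertain. Bad, a BH3-only gene controlled by growth factor signalling, was as high as Bid, with 33.1, 36.7 and 32.1 FPKM, against 47.3, 32.6 and 36.8 FPKM in controls. Bok, an effector-like relative of Bax and Bak1, was at 3.64, 3.05 and 2.77 FPKM, against 5.38, 7.07 and 2.74 FPKM (adjusted p = 0.443). Among relatives with other functions, 4 of 6 tested were higher, and Bnip3l, a receptor for the removal of mitochondria by autophagy, had 157, 153 and 159 FPKM, against 139, 132 and 128 FPKM in controls (log2 fold change 0.23, unadjusted p = 0.0272, adjusted p = 0.242).

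Genes that act after the mitochondrial step showed small differences in both directions. Of 7 apoptosome and caspase genes, 3 were higher and 4 lower. Casp9, the initiator that the apoptosome activates, named after its values were seen, was lower with no overlap, at 4.62, 6.39 and 6.55 FPKM in Emp1-deficient libraries, against 6.92, 9.25 and 8.38 FPKM in controls (adjusted p = 0.285). Cycs, which encodes cytochrome c and was the highest of the group, had 108, 72.2 and 93.0 FPKM, against 75.1, 77.6 and 82.2 FPKM in controls, again with replicates 1 and 3 above and replicate 2 below. Among the inhibitors of apoptosis and released factors, 3 of 8 were higher. Birc6, a very large inhibitor with ubiquitin-conjugating activity, had 76.6, 75.6 and 85.2 FPKM, against 56.9, 70.8 and 66.6 FPKM (adjusted p = 0.242), and Diablo, its antagonist, overlapped at 73.8 to 93.4 and 73.9 to 82.3 FPKM.

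Of the 4 outer membrane partners, 2 were higher and 2 lower. Vdac1, the main ion channel of that membrane, had 91.8, 83.9 and 69.7 FPKM in Emp1-deficient libraries, against 111, 108 and 101 FPKM in controls. All Emp1-deficient libraries lay below all controls (log2 fold change -0.39, SE 0.12, unadjusted p = 0.0091, adjusted p = 0.164). Vdac3, the highest of the group, averaged 159 ± 11.9 and 151 ± 11.8 FPKM (SD, n = 3 each). In the death receptor arm upstream of BID, 3 of 8 were higher. Tnfrsf1a, a receptor of tumour necrosis factor, had 26.9, 34.4 and 25.0 FPKM, against 36.2, 37.0 and 35.7 FPKM in controls (adjusted p = 0.243). Cflar, which encodes the caspase-8 inhibitor FLIP, was the highest of this arm and overlapped, at 50.2 to 62.8 FPKM against 51.3 to 54.3 FPKM.

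Among 13 tested transcriptional regulators of the family, 4 were higher and 9 lower, and the genotypes did not overlap in 6 of them, or 46.2%, against 22.1% of all tested genes. At an unadjusted p under 0.05 the share was 30.8%, against 16.2%, and none passed after adjustment. Ddit3, which encodes CHOP, an inducer of Bcl2l11 and Bbc3 under endoplasmic reticulum stress, had 148, 143 and 199 FPKM in Emp1-deficient libraries, against 121, 106 and 118 FPKM in controls (log2 fold change 0.49, SE 0.14, unadjusted p = 0.00592, adjusted p = 0.141). A second, 105-base identifier of that symbol lies wholly within Ddit3 exons and stood at 0 in all Emp1-deficient libraries, against 37.8, 10.2 and 0 FPKM in controls. In the same libraries Bcl2l11 and Bbc3 overlapped between the genotypes, and whether Ddit3 bears on them was not tested. Of the 6 without overlap, Ddit3 and Nfkb1 were higher and Foxo3, Atf4, Trp53 and Stat5a lower; all but Ddit3 were named after their values were seen. Nfkb1, which encodes an NF-kappa-B subunit, had 126, 125 and 129 FPKM, against 115, 111 and 105 FPKM in controls (adjusted p = 0.311). Foxo3, an activator of Bcl2l11 and Bbc3, had 22.2, 20.2 and 22.2 FPKM, against 26.6, 28.2 and 25.7 FPKM in controls (adjusted p = 0.214). Trp53, the p53 gene, averaged 214 ± 3.84 and 245 ± 29.1 FPKM (SD, n = 3 each, adjusted p = 0.449 by limma), Atf4 111 ± 7.3 and 135 ± 16.5 FPKM (adjusted p = 0.268), and Stat5a 51.9 ± 0.508 and 61.5 ± 2.06 FPKM (adjusted p = 0.225). Myc was the highest of the group, at 197, 334 and 322 FPKM, against 449, 365 and 295 FPKM, with overlap.

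Genes that control family proteins after translation were also listed, as MCL1 is removed by ubiquitin ligases and spared by deubiquitinases. Any link between these transcripts and Mcl1 or its protein was not tested. Usp9x, a deubiquitinase that stabilises MCL1, had the smallest p of all members and pathway genes. It stood at 36.7, 38.7 and 40.2 FPKM in Emp1-deficient libraries, against 30.6, 25.5 and 26.4 FPKM in controls, with no overlap. The log2 fold change was 0.48 (SE 0.11, unadjusted p = 0.00177), and the adjusted p of 0.0969 missed the threshold (0.0543 to 0.346 over the alternative settings). Dynll1, a dynein light chain that tethers BIM, had 83.8, 69.6 and 51.6 FPKM, against 91.8, 64.8 and 112.6 FPKM, with overlap. Genes of ubiquitin ligases, named after their values were seen, overlapped between the genotypes. By limma, the log2 fold change was 0.052 for Huwe1 (adjusted p = 0.919), 0.12 for Fbxw7 (adjusted p = 0.77) and -0.072 for Btrc (adjusted p = 0.855). Over the 6 genes of this list 4 were higher and 2 lower.

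**Figure D4:**
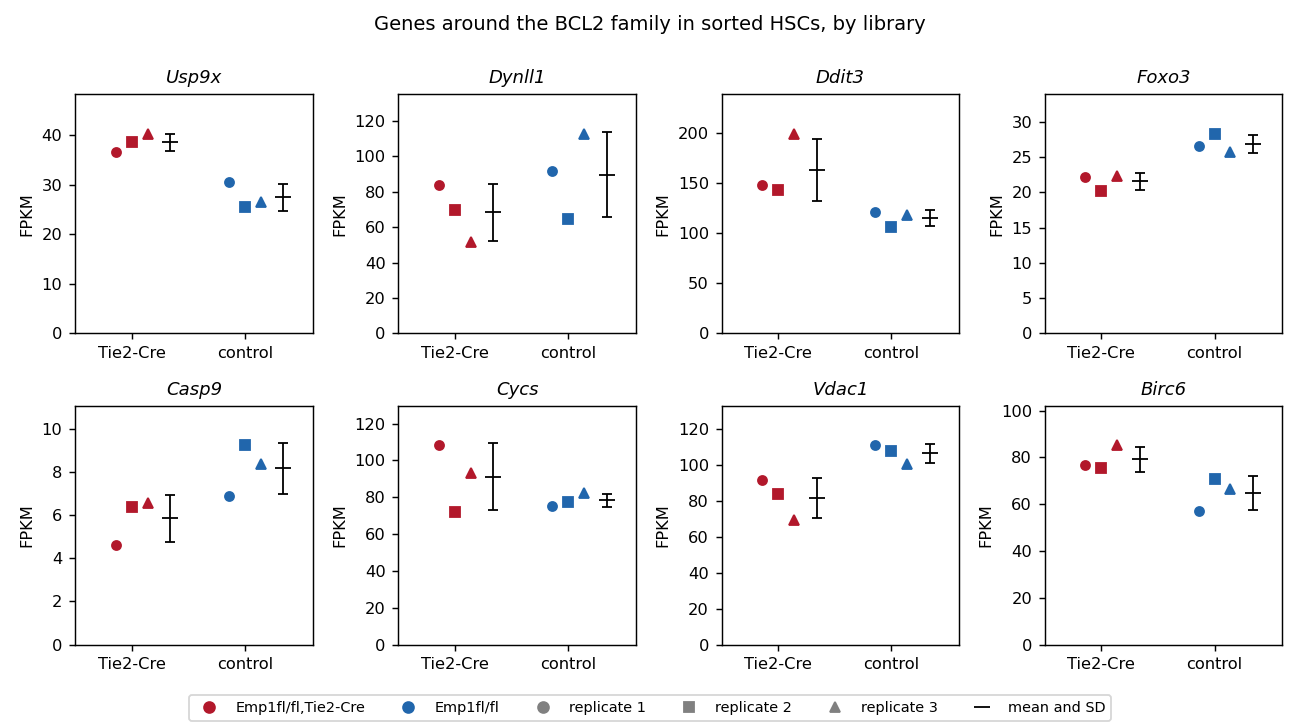
FPKM in each library of 8 genes around the family, Emp1fl/fl,Tie2-Cre (red) left of Emp1fl/fl controls (blue), with mean and SD in black. Usp9x, Ddit3 and Birc6 lie higher and Foxo3, Casp9 and Vdac1 lower in Emp1fl/fl,Tie2-Cre libraries with no overlap in FPKM. Dynll1 and Cycs overlap, and none passed the adjusted test. After rescaling to a common library sum the genotypes overlap for Birc6 (unadjusted p = 0.0719 by limma).

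Markers of other cells that could enter the gate were read beside these values. By summed FPKM over each whole list, genes of T and NK cells (7 genes) ran from 279 to 394 in Emp1-deficient libraries and from 211 to 277 in controls, almost all of it Nkg7, with Cd3d, Cd3g and Klrd1 at 0 in some libraries. B cell genes (8) ran from 345 to 1430 and from 144 to 594, led by Igkc. Its log2 fold change was 1.73 (adjusted p = 0.559 by limma), while that of Ighm was -2.43 (adjusted p = 0.459). Ighm had 10.4, 9.11 and 4.32 FPKM in Emp1-deficient libraries, against 44.2, 215 and 8.93 FPKM in controls. Both genes overlapped between the genotypes. Sums of monocyte, macrophage and dendritic genes (8) were 346 to 419 and 392 to 409, of neutrophil genes (7) 152 to 453 and 164 to 392, of erythroid genes (7) 62.2 to 123 and 60.1 to 174, of megakaryocyte genes (6) 548 to 919 and 657 to 860, and of endothelial genes (6) 73.2 to 113 and 90.4 to 111. No gene of these lists passed between the genotypes by limma, and among the 45 tested, stem cell genes included, 1 was higher and 5 were lower with no overlap, or 13.3% against 22.1% of all tested genes. The sums hide the lower ones. In the monocyte and dendritic list, which Lyz2 leads, Irf8, a factor of monocyte and dendritic cell development, had 7.15, 5.94 and 5.66 FPKM in Emp1-deficient libraries, against 13.9, 18.2 and 11.1 FPKM in controls (log2 fold change -1.07, unadjusted p = 0.000303, adjusted p = 0.0662). Csf1r, the receptor of macrophage colony-stimulating factor, had 5.15, 4.03 and 2.24 FPKM, against 7.72, 6.92 and 11.7 FPKM (log2 fold change -1.04, unadjusted p = 0.00393, adjusted p = 0.123). Tie1, an endothelial receptor, averaged 22.8 ± 3.57 FPKM, against 36.9 ± 2.47 FPKM in controls (SD, n = 3 each, adjusted p = 0.076 by limma). Of the stem cell genes, Hlf was lower at 32.9 to 43.3 FPKM, against 47.1 to 64.6 FPKM in controls (adjusted p = 0.153), as was Ly6a (adjusted p = 0.199). Slamf1 went the other way, with overlap (log2 fold change 0.42, unadjusted p = 0.0264, adjusted p = 0.241 by limma). Nkg7 was the gene that was higher with no overlap, at 263 to 372 FPKM, against 187 to 258 FPKM (adjusted p = 0.168). The marker genes given with their own values here were named after those were seen, apart from Igkc, Nkg7 and Lyz2. The part of these markers in the values of the family was not tested.

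Across 10 other settings and the removal of each library in turn, no member was called in any of them. Member log2 fold changes kept their sign in 157 of 158 values, the exception being Bcl2 without control replicate 1 (0.0027). The members nearest to a call in any setting had adjusted p-values of 0.203 (Pmaip1) and 0.204 (Mcl1).

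**Figure D5:**
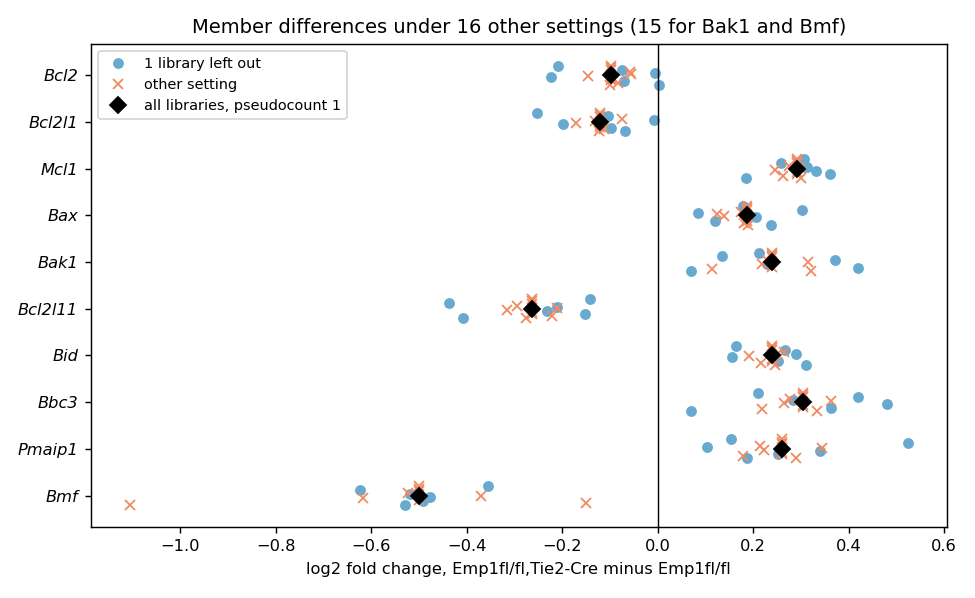
Log2 fold change (Emp1fl/fl,Tie2-Cre minus Emp1fl/fl) of each member with all libraries (black diamonds), with 1 library left out (blue circles) and under the other settings (orange crosses). Bmf moves most with the pseudocount, from -1.11 to -0.15, whereas Mcl1 stays between 0.19 and 0.36.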

How the data were processed

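The authors deposited one gene by library table of FPKM values with 2 decimals for 6 libraries, each from 1 sample. Per the labels' protocols, RNA was extracted with a miRNeasy kit, amplified by Geo-seq, a low-input method, and made into libraries with a transposase kit. The tools named in the submitters' processing notes are DESeq2, HTSeq, Cufflinks 2.1.1 and Bowtie 0.12.9, with the build mm10; the tool behind the FPKM is not given in the sources used. Each FPKM is a share of its own library, amplification adds scatter, and counts were not used, so no counting intervals are given.

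Symbols, exons and positions came from GENCODE M21 (GRCm38, which mm10 denotes); 55141 of 55401 identifiers matched, and for 107 others sharing a symbol the one with the highest mean kept it. The 15723 genes that reached 1 FPKM in 3 or more libraries, and Emp1 whatever its level, were analysed as log2(FPKM + 1) by limma 3.58.1 under R 4.3.3 (eBayes with trend and robust, two-sided, genotype as the only term). Fold changes of low genes are understated by this scale. Adjustment was over all tested genes by Benjamini-Hochberg at 0.05, and intervals cover 95%. The value of 1 fragment was read as the sharpest rise in FPKM times exonic length among single-exon genes of 300 to 700 bp, as an estimate only.

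The named genes were the members, Emp1, and of each pathway list the gene with the smallest p and the one with the highest mean; of marker lists, the highest gene and those at 0; 1 gene that this rule names is not reported here. Other named genes are said to be so, apart from those given with a low level or with the sort markers. Members and lists were chosen with earlier results of these data known. Replicate numbers were not used to pair the libraries in the main fit.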

Additional observations from a re-analysis of the deposited data

How the results depend on the processing

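Under the 16 alternatives, 0 members and 0 of the other pathway genes were called by limma in any, while the number of members at an unadjusted p under 0.05 was 0 after rescaling to TPM, 2 with array weights and 0 to 3 with 1 library left out (0 without Emp1-deficient replicate 3, 3 without Emp1-deficient replicate 2). The unfiltered table held 45399 genes, and Bak1 and Bmf were not tested at the filter of 5 FPKM.

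Over all genes, 25 were called higher and 17 lower. With a pseudocount of 0.1 the calls were 14 higher, with one of 5 they were 6 higher and 9 lower, without a filter 2 and 3, at the filter of 5 FPKM 49 and 64, after rescaling to TPM 11 higher, after quantile normalization 15 and 9, with array weights 45 lower, in protein-coding genes of 400 or more exonic bp 70 and 142, and without trend and robust 5 and 3. Leaving out 1 library gave 3 to 20 higher and 2 to 20 lower. The cause was not tested. Emp1, not called otherwise, was called under array weights (-1.52, adjusted p = 0.0456) and in the protein-coding set (-1.53, adjusted p = 0.0185).

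Same-numbered libraries deviated from their genotype means with correlations of -0.108, 0.0859 and -0.0523 over all tested genes. Differently numbered ones ran from -0.128 to 0.176, so no pairing by number was seen over all genes. Single genes did follow the numbers. S100a8, picked after its values were seen, had 87.3, 33.1 and 212 FPKM in Emp1-deficient libraries, against 87.3, 32.4 and 189 FPKM in controls. Bcl2 ran in opposite order. Whether the numbers mark shared sorts or batches was not tested. With the replicate block, 6 genes were higher and 2 lower, with 0 members among them. The unadjusted limma p fell from 0.173 to 0.0837 for Bax and from 0.19 to 0.1055 for Bcl2l11. For Bid it rose from 0.0778 to 0.1225.

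Diablo turned to -0.0054 after rescaling to TPM, to -0.0091 after quantile normalization and to as low as -0.052 with 1 library left out (up to 0.12), Vdac3 to -0.019 after quantile normalization, and Cflar ranged from -0.030 to 0.13 and Bcl2 from -0.22 to 0.0027 with 1 library left out. None of these had been called. Absolute depth was not known, so low genes such as Bmf and Bak1 are least certain.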
